A study of Mus musculus with 6 samples.

Results

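The 54 genes described here encode liver enzymes that degrade amino acids or carry single carbons. They were taken as a named list, matched exactly to the gene symbols of a table of 35976 genes, and arranged by the amino acid they degrade. All 54 were found, and all passed the filter on low counts that left 14954 genes for testing. The table holds raw counts from poly(A) RNA of whole mouse liver. There were 3 libraries of genotype IRE1PKO and 3 of genotype IRE1fl, all from males given HFD, taken to mean a high-fat diet. The mice were fasted for 16 hours and then fed for 4 hours before liver was collected. Ern1 encodes IRE1, which senses unfolded proteins in the endoplasmic reticulum. What PKO stands for, the cells in which the gene was targeted, the Cre driver and the age of the animals are not stated in the labels. Fatty liver disease and signals between the pituitary and the liver are the subject named in the title of the series.

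Amino acid catabolism takes place largely in hepatocytes, and many of its enzymes are made in larger amounts under glucagon and glucocorticoid than under insulin. Transaminases pass the amino group to glutamate, dehydrogenases and dehydratases release it as ammonia for the urea cycle, and the carbon skeletons go to glucose, ketone bodies or the citric acid cycle. One-carbon metabolism links histidine, glycine, serine, choline and methionine breakdown through folate and S-adenosylmethionine, the methyl donor of the cell. Several of these enzymes lie more on the periportal side of the liver lobule, near the incoming portal blood.

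Total counts ranged from 35776219 to 39277435 per library. By edgeR's quasi-likelihood test, with p adjusted after Benjamini and Hochberg for every gene tested, 849 genes were higher and 577 lower in IRE1PKO, together 9.54% of those tested. The higher share of the calls was 59.5%, and 73.4% under scaling by library totals alone. Ern1 itself (chromosome 11, 106397620 to 106487796) had 45.7, 36.6 and 44.2 CPM in the IRE1PKO libraries, against 61.2, 49.3 and 60.8 CPM in the IRE1fl libraries (log2 fold change -0.44, SE 0.11, edgeR adjusted p = 0.0357). CPM is the count scaled to a common library total. That total is taken over the tested genes and multiplied by a TMM factor (trimmed mean of M-values). Ern1 was no longer called when IRE1fl 1, IRE1fl 3 or any 1 IRE1PKO library was left out (adjusted p up to 0.137) or with library totals as the only scaling (adjusted p = 0.066). As the targeted cells are not stated, this level does not check the labels. Of 8 hepatocyte markers 1 passed, and that one fell. Their summed level was 99452 to 120630.5 CPM in IRE1PKO and 107093 to 126802 CPM in IRE1fl. Of 9 stellate cell and fibroblast markers 8 rose, with a summed level of 427 to 457 CPM in IRE1PKO and 223 to 261 CPM in IRE1fl. Of 7 recruited macrophage markers 2 rose, with a summed level of 34.1 to 46.1 CPM in IRE1PKO and 13.4 to 23.5 CPM in IRE1fl, and of 6 sinusoidal endothelial markers 2 rose. Of 6 pancreatic acinar markers 3 had no count in any library and 1 was tested, Cela1, which fell. Their summed level was 7.85 to 11.1 CPM in IRE1PKO and 28.9 to 42.6 CPM in IRE1fl. Of 5 kidney proximal tubule markers 1 had no count and 1 was tested, Lrp2, which fell, with a summed level of 0.271 to 0.513 CPM in IRE1PKO and 1.22 to 4.45 CPM in IRE1fl. T and NK cell markers (1 of 6 fell) summed to 2.31 to 3.04 CPM in IRE1PKO and 5.15 to 5.52 CPM in IRE1fl. Of 6 Kupffer cell, 5 B and plasma cell and 3 tested erythroid markers 1 each fell. The median log2 fold changes of these 3 lists were 0.31, -0.11 and 0.67. Kupffer cell markers summed to 315 to 434 CPM in IRE1PKO and 258 to 360 CPM in IRE1fl. Of 6 tested cholangiocyte markers 1 fell and 1 rose, and of 2 tested neutrophil markers 0 passed. In bulk liver, fewer cells of a type and less RNA per cell cannot be told apart, and the part of these markers in the results below was not tested.

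Of the 54 genes, 21 were lower and 0 higher in IRE1PKO at an adjusted p under 0.05, by edgeR's quasi-likelihood test. That is 38.9% of the genes, where 3.86% of all tested genes were called lower and 5.68% called higher. The 54 genes had mean levels of 12.5 to 3231 CPM over the libraries, and the share over all tested genes was not matched for level. With the filter at a mean of 1 CPM, 20 of the 54 genes and 4.34% of all tested genes were called lower. The median log2 fold change was -0.41 over the 54 genes and -0.0014 over all tested genes, and 45 of the 54 values were below 0. Among the 21 genes that fell, 4 had a log2 fold change below -1, 14 lay from -1 to -0.5 and 3 lay above -0.5. For 32 of the 54 genes every IRE1PKO library was below every IRE1fl library, against 15.0% of all tested genes, and 1 gene had the opposite arrangement, against 16.0%. Together, 33 of the 54 genes had groups without overlap, an arrangement found in 31.0% of all tested genes. Without IRE1PKO 1 only 10 of the genes were called lower, and without IRE1fl 3 the number was 15. At least 1 gene fell in tyrosine, tryptophan, alanine and aspartate, branched-chain amino acid, hydroxyproline, histidine, glycine and glyoxylate, lysine, methionine and choline metabolism. None passed among the serine and threonine, cysteine and folate enzymes.

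**Figure D1:**
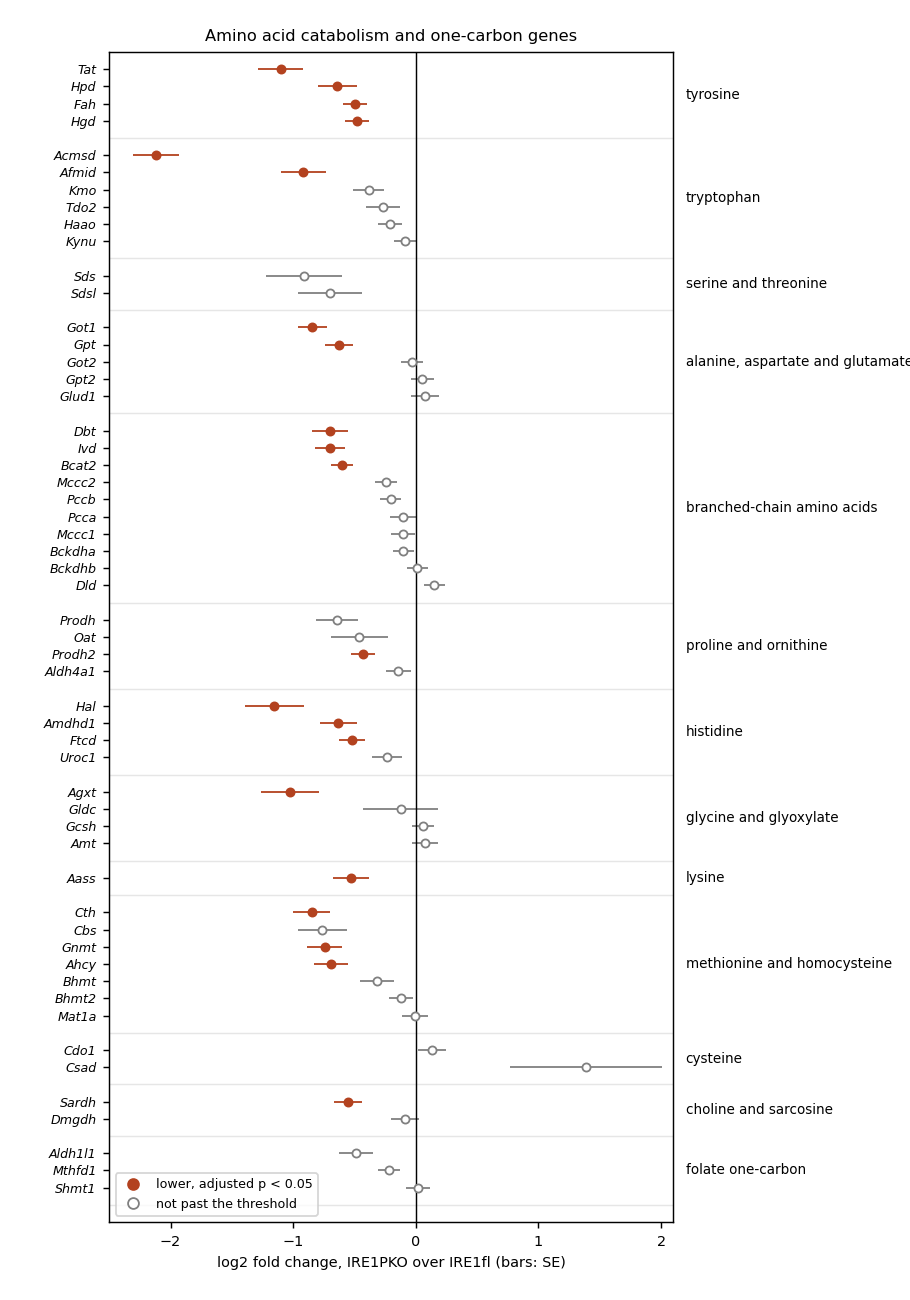
Log2 fold change, IRE1PKO over IRE1fl, of each of the 54 genes (x axis) with its standard error, grouped by the amino acid degraded. Filled points mark the 21 genes that fell past the threshold, and Acmsd has the lowest value, -2.12.

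**Figure D2:**
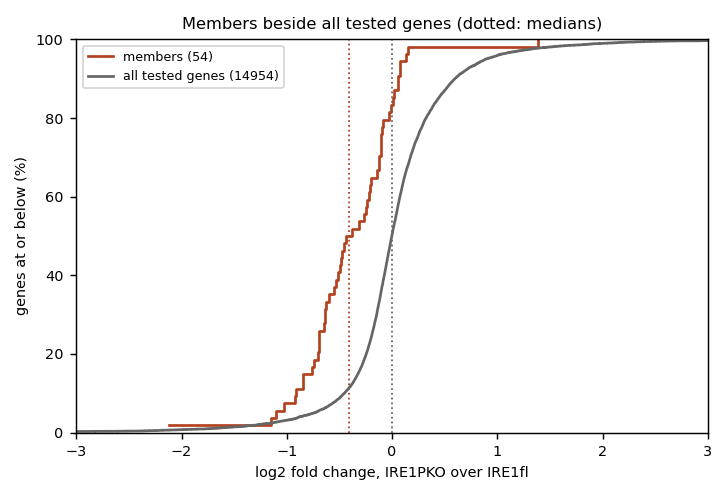
Share of genes at or below each log2 fold change, IRE1PKO over IRE1fl, for the 54 genes and for the 14954 tested genes, with medians dotted. The median of the 54 genes is -0.41 and lies at the 11.4% point of all tested genes.

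The sequence just before the transcription start was examined because the 21 genes that passed all moved in 1 direction. RefSeq windows on GRCm38.p6 were found for 46 of the 54 genes, 18 of them among the 21 that fell. The 250 bases before the start are printed for Hal, Tat and Agxt, 3 of the 4 genes with a log2 fold change below -1. The window of Acmsd, the remaining gene of these, was found but is not printed. Windows are also printed for Got1 and Got2, an isozyme pair of which Got1 passed the test and Got2 did not. Capitals mark matches to the motifs searched, on either strand, and no printed match overlaps another. The Tat window precedes a start that lies inside the RefSeq span given for that gene. The other printed windows end where the gene spans begin on their strand.
Hal, chr10:93488518-93488767, plus strand: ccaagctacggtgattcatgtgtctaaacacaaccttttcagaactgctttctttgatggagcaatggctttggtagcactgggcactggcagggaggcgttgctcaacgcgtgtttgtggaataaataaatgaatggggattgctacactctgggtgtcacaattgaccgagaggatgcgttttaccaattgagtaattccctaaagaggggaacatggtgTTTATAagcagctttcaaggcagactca
Tat, chr8:109990186-109990435, plus strand: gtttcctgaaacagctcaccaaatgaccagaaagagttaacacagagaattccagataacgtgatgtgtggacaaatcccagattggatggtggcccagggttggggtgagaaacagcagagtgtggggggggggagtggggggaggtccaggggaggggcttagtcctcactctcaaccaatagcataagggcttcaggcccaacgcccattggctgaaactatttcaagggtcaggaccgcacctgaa
Agxt, chr1:93134990-93135239, plus strand: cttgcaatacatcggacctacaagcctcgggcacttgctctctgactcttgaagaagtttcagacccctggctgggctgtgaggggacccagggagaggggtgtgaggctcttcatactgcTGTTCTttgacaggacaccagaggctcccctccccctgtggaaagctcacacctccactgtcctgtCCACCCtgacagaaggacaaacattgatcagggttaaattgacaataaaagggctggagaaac
Got1, chr19:43524606-43524855, minus strand: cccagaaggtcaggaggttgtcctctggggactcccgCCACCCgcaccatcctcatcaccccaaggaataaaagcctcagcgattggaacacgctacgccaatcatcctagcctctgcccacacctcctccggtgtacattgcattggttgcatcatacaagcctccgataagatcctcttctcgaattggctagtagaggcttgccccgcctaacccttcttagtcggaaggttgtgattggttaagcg
Got2, chr8:95888402-95888651, minus strand: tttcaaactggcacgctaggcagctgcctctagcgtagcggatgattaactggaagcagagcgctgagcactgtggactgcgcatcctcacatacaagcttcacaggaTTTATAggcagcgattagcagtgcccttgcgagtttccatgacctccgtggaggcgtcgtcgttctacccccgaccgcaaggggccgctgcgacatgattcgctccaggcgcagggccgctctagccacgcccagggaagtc

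The letters of a TATA box, read on the opposite strand, stand 28 bases before the start of Hal. The Agxt window holds a glucocorticoid receptor motif and a CACCC box, and the Got1 window a CACCC box. The Got2 window holds a TATA box on the opposite strand, further out. The Tat window holds none of the 7 motifs searched. The CACCC box, bound by KLF factors and searched as CCACCC, was present in 8 of the 18 windows of genes that fell, in 12 of 28 windows of the other genes, and in 28.1% of all 32851 windows. The TATA box, searched as TATAAA, was in 3 of 18 and 2 of 28 windows, against 12.4% of all. These are descriptions of the letters in the windows.

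Shorter forms of the binding motifs of hepatic factors were also searched. The glucocorticoid receptor letters TGTTCT were in 1 of 18 and 3 of 28, against 16.1% of all.

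The CREB letters TGACGT were in 1 of 18 and 1 of 28 windows, against 6.47% of all. The HNF4 letters CAAAGTCCA, the C/EBP letters TTNCGCAA and the FOX letters TGTTTAC were in 0 of the 46 windows, and in 0.384%, 0.670% and 3.17% of all windows.

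The 4 tyrosine enzymes among the 54 genes all fell in IRE1PKO livers. Tat, the tyrosine aminotransferase that takes the first step (chromosome 8, 109986078 to 109999804), had 367, 557 and 334 CPM in the IRE1PKO libraries, against 836, 977 and 888 CPM in the IRE1fl libraries. Every IRE1PKO library was below every IRE1fl library, and IRE1PKO 2 was the nearest to them (log2 fold change -1.10, SE 0.18, edgeR adjusted p = 0.00657). Hpd, the dioxygenase of the second step, had 1490.4, 2083 and 1328 CPM in the IRE1PKO libraries, against 2733, 2467 and 2443 CPM in the IRE1fl libraries (log2 fold change -0.64, SE 0.16, edgeR adjusted p = 0.0289). Hgd, which opens the ring of homogentisate, had 431, 486 and 468 CPM in the IRE1PKO libraries, against 676, 609.8 and 643 CPM in the IRE1fl libraries (log2 fold change -0.48, SE 0.098, edgeR adjusted p = 0.012). The groups did not overlap for either gene, and IRE1PKO 2 was again the highest IRE1PKO library. Fah, the last enzyme, which yields fumarate and acetoacetate, had 487, 526 and 495 CPM in the IRE1PKO libraries, against 698, 675 and 750.2 CPM in the IRE1fl libraries (log2 fold change -0.49, SE 0.096, edgeR adjusted p = 0.0092). Its groups did not overlap either. Gstz1, the isomerase between Hgd and Fah, is on the list of further enzymes and did not pass (log2 fold change -0.23, edgeR adjusted p = 0.156). Tat and Fah passed without each library in turn. The Hgd call was lost without IRE1PKO 1 (adjusted p = 0.0621), and the Hpd call without IRE1PKO 1, IRE1PKO 3 or any 1 IRE1fl library (adjusted p up to 0.126).

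The 6 enzymes of the kynurenine pathway of tryptophan were not all lower: Acmsd and Afmid fell and 4 did not pass. Acmsd, the decarboxylase that draws an intermediate away from quinolinate and so from NAD synthesis (chromosome 1, 127729413 to 127767564), had 4.29, 4.53 and 5.30 CPM in the IRE1PKO libraries, against 23.5, 14.8 and 22.9 CPM in the IRE1fl libraries. Its IRE1PKO level was 23.1% of the IRE1fl level (log2 fold change -2.12, SE 0.19, edgeR adjusted p = 0.00016), the lowest ratio of the 54 genes, and it passed without each library in turn. The groups were far apart, although IRE1fl 2 was the lowest IRE1fl library. Afmid, the formamidase that forms kynurenine (chromosome 11, 117825503 to 117839908), had 77.0, 110.2 and 72.6 CPM in the IRE1PKO libraries, against 150.3, 144 and 196 CPM in the IRE1fl libraries (log2 fold change -0.92, SE 0.18, edgeR adjusted p = 0.02). The groups did not overlap, but the call was lost without IRE1PKO 1 (adjusted p = 0.0856) or IRE1PKO 3 (0.0543). Annotated exons of another gene on the same strand, Gm20708, cover 44.2% of the Afmid exon bases. The span of Afmid also runs into that of Tk1, a thymidine kinase named after its values were seen, which had 13.4, 20.6 and 15.9 CPM in the IRE1PKO libraries, against 31.9, 41.8 and 37.1 CPM in the IRE1fl libraries (log2 fold change -1.15, SE 0.16, edgeR adjusted p = 0.00266). Whether counting used strand is not stated, so the assignment of Afmid reads is uncertain. Tdo2, the dioxygenase that opens the indole ring and sets the pathway's rate in liver, had 1116, 1163 and 1089 CPM in the IRE1PKO libraries, against 1681, 1164 and 1212 CPM in the IRE1fl libraries (log2 fold change -0.27, edgeR adjusted p = 0.261). IRE1fl 1 stood apart from the other two IRE1fl libraries, which lay close to the highest IRE1PKO library. Kmo, Haao and Kynu, the hydroxylase, the ring-opening dioxygenase and the hydrolase, had log2 fold changes of -0.38, -0.21 and -0.084 (edgeR adjusted p of 0.0836, 0.202 and 0.635). Kmo passed without IRE1PKO 3 (adjusted p = 0.0211) and without the filter on low counts (0.0251).

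In histidine breakdown, 3 of 4 enzymes fell. Hal, the histidine ammonia-lyase of the first step (chromosome 10, 93488768 to 93516761), had 143, 162 and 209 CPM in the IRE1PKO libraries, against 468, 263 and 412 CPM in the IRE1fl libraries (log2 fold change -1.15, SE 0.24, edgeR adjusted p = 0.0304). All IRE1PKO libraries were below all IRE1fl libraries, and IRE1fl 2 was the lowest of its group. Amdhd1, the imidazolonepropionase, had 172, 183 and 164 CPM in the IRE1PKO libraries, against 326, 204 and 274 CPM in the IRE1fl libraries (log2 fold change -0.63, SE 0.15, edgeR adjusted p = 0.0287), with IRE1fl 2 once more the lowest. Hal and Amdhd1 are neighbours on chromosome 10, 6576 bases apart. Ftcd, which hands the last carbon group of histidine to folate and releases ammonia, had 382, 450.5 and 426 CPM in the IRE1PKO libraries, against 624, 543 and 634 CPM in the IRE1fl libraries (log2 fold change -0.52, SE 0.11, edgeR adjusted p = 0.0123). Uroc1, the urocanase between Hal and Amdhd1 in the pathway, did not pass (log2 fold change -0.23, edgeR adjusted p = 0.267), and its groups overlapped. The Hal call was lost without IRE1PKO 1, IRE1PKO 2 or IRE1fl 3 (adjusted p up to 0.111) and without the filter on low counts (0.109). The Amdhd1 call was lost without any 1 IRE1PKO library or IRE1fl 3 (up to 0.11), and the Ftcd call without IRE1PKO 1 (0.0644).

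The transaminases of alanine and aspartate split by isozyme: the cytosolic forms fell and the mitochondrial forms did not pass. Got1, the cytosolic aspartate aminotransferase (chromosome 19, 43499752 to 43524605), had 134, 166 and 151 CPM in the IRE1PKO libraries, against 311, 236 and 261 CPM in the IRE1fl libraries (log2 fold change -0.84, SE 0.12, edgeR adjusted p = 0.00187). Gpt, the cytosolic alanine aminotransferase (chromosome 15, 76696726 to 76699675), had 285, 367 and 287 CPM in the IRE1PKO libraries, against 481, 454 and 513 CPM in the IRE1fl libraries (log2 fold change -0.63, SE 0.12, edgeR adjusted p = 0.00733). Both had groups that did not overlap and passed without each library in turn. Got2 and Gpt2, the mitochondrial forms, had 697 ± 19.4 CPM in IRE1PKO and 713 ± 23.6 CPM in IRE1fl, and 706 ± 26.3 CPM in IRE1PKO and 679.9 ± 35.3 CPM in IRE1fl (SD, n = 3 each), with log2 fold changes of -0.031 (SE 0.093) and 0.054 (SE 0.096). The groups overlapped for both (edgeR adjusted p of 0.872 and 0.776). Glud1, the mitochondrial glutamate dehydrogenase, had a log2 fold change of 0.074 (SE 0.11, edgeR adjusted p = 0.729).

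The 5 pairs of related enzymes were also set side by side within each library. The log2 ratio of the CPM of the first gene to that of the second was taken, not scaled by gene length. It therefore compares groups within a pair, not the levels of its genes. The ratio of Got1 to Got2 was -2.38, -2.12 and -2.18 in the IRE1PKO libraries, against -1.25, -1.57 and -1.42 in the IRE1fl libraries. The groups did not overlap, and the mean difference was -0.81. The ratio of Gpt to Gpt2 was -1.36, -0.89 and -1.29 in the IRE1PKO libraries, against -0.42, -0.64 and -0.42 in the IRE1fl libraries, a mean difference of -0.69 with groups that did not overlap. For Sds to Sdsl the mean difference was -0.20. Each of these 3 pairs gave p = 0.1 in the two-sided exact permutation test, which is the smallest p that 3 libraries against 3 allow (adjusted over the 5 pairs, 0.167). For Prodh to Prodh2 and Bhmt to Bhmt2 the differences were -0.22 and -0.19, with exact permutation p of 0.4 and 0.3 and groups that overlapped. The promoter windows of Got1 and Got2 are among those printed.

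**Figure D3:**
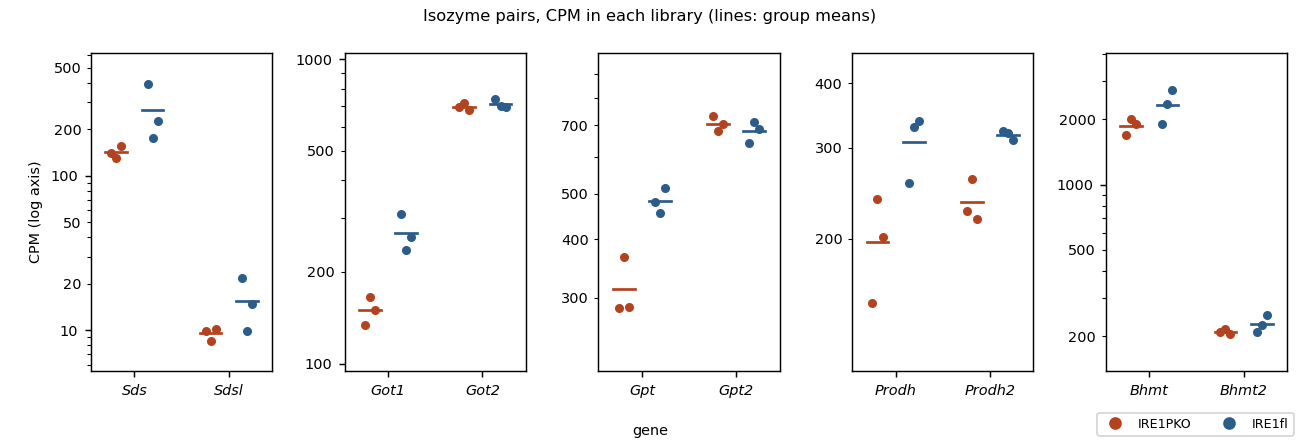
CPM in each library (log axis) for 5 pairs of related enzymes, IRE1PKO left of IRE1fl within each gene, with lines at the group means. Got1 and Gpt are lower in every IRE1PKO library, while the groups overlap for Got2 and Gpt2. Levels are not scaled by gene length, so heights compare groups within a gene only.

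Of 10 branched-chain enzymes, 3 fell. Bcat2, the mitochondrial aminotransferase of leucine, isoleucine and valine (chromosome 7, 45568967 to 45589710), had 39.5, 38.3 and 35.6 CPM in the IRE1PKO libraries, against 61.3, 54.4 and 56.3 CPM in the IRE1fl libraries (log2 fold change -0.60, SE 0.088, edgeR adjusted p = 0.00206). Ivd, the isovaleryl-CoA dehydrogenase of the leucine branch, had 151, 200.0 and 155 CPM in the IRE1PKO libraries, against 271, 255 and 295 CPM in the IRE1fl libraries (log2 fold change -0.70, SE 0.12, edgeR adjusted p = 0.00481). Both passed without each library in turn, and their groups did not overlap. Dbt, the core transacylase of the branched-chain ketoacid dehydrogenase, had 58.3, 80.4 and 78.3 CPM in the IRE1PKO libraries, against 114, 102 and 137 CPM in the IRE1fl libraries (log2 fold change -0.70, SE 0.14, edgeR adjusted p = 0.0162), a call lost without IRE1fl 3 (adjusted p = 0.0511). The other subunits of that complex did not pass: Bckdha and Bckdhb, of its decarboxylase, had log2 fold changes of -0.10 and 0.013, and Dld, which the complex shares with pyruvate dehydrogenase, 0.15 (edgeR adjusted p of 0.511, 0.942 and 0.303). Dld was the 1 gene whose IRE1PKO libraries were all above the IRE1fl libraries. Mccc1 and Mccc2, the subunits of the leucine branch carboxylase, and Pcca and Pccb, those of propionyl-CoA carboxylase, had log2 fold changes between -0.24 and -0.10 (edgeR adjusted p from 0.113 to 0.576). Exons of B3gnt8 on the opposite strand cover 61.7% of the Bckdha exon bases, and exons of 0610005C13Rik, also opposite, 15.9% of those of Bcat2, so reads there could not be told apart without strand.

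Of 7 methionine and homocysteine enzymes, 3 fell. Mat1a, which makes S-adenosylmethionine in liver, had 3086, 3322 and 3264 CPM in the IRE1PKO libraries, against 3309.7, 3137 and 3267 CPM in the IRE1fl libraries. The groups overlapped, with a log2 fold change of -0.0060 (SE 0.10, edgeR adjusted p = 0.98). Gnmt, which spends S-adenosylmethionine on the methylation of glycine (chromosome 17, 46725664 to 46729211), had 1003, 1252 and 839 CPM in the IRE1PKO libraries, against 1649, 1653 and 1869.9 CPM in the IRE1fl libraries (log2 fold change -0.74, SE 0.14, edgeR adjusted p = 0.00869). Ahcy, which splits the S-adenosylhomocysteine left by methylation, had 977, 1374 and 1238 CPM in the IRE1PKO libraries, against 1737, 1982 and 2089.7 CPM in the IRE1fl libraries (log2 fold change -0.69, SE 0.14, edgeR adjusted p = 0.0101). Neither overlapped between groups. Cth, the last enzyme of transsulfuration from homocysteine to cysteine, had 138, 193 and 154 CPM in the IRE1PKO libraries, against 346, 251 and 275 CPM in the IRE1fl libraries (log2 fold change -0.85, SE 0.15, edgeR adjusted p = 0.00747). Ahcy and Cth passed without each library in turn, and the Gnmt call was lost without IRE1PKO 1 (adjusted p = 0.0542). Cbs, the first enzyme of transsulfuration, had 364, 345 and 289 CPM in the IRE1PKO libraries, against 756, 439.5 and 495 CPM in the IRE1fl libraries (log2 fold change -0.76, SE 0.20, edgeR adjusted p = 0.054). It did not pass although the groups did not overlap. IRE1fl 1 was far above the other libraries, and without it Cbs passed (adjusted p = 0.0323), as it did without IRE1fl 2 (0.0192). Bhmt and Bhmt2, which return homocysteine to methionine with a methyl group from betaine or S-methylmethionine, had log2 fold changes of -0.32 and -0.12 (edgeR adjusted p of 0.181 and 0.469).

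Apart from the pair ratios above, levels were compared between genes only per kilobase of annotated exon. On that scale Gnmt had 855 ± 172 CPM per kb in IRE1PKO and 1429.7 ± 105 CPM per kb in IRE1fl (SD, n = 3 each), Hpd had 768 ± 187 CPM per kb in IRE1PKO and 1197 ± 75.7 CPM per kb in IRE1fl, and Mat1a had 929.7 ± 35.4 CPM per kb in IRE1PKO and 934 ± 26.0 CPM per kb in IRE1fl. In IRE1fl the order was Gnmt, Hpd, Mat1a, and these were the 3 highest of the 54 genes. In IRE1PKO Mat1a was first, and the means of Mat1a, Gnmt and Hpd lay within the SD of Gnmt and Hpd. Acmsd, with 1.66 ± 0.187 CPM per kb in IRE1PKO and 7.22 ± 1.71 CPM per kb in IRE1fl, was the lowest in IRE1PKO and the second lowest in IRE1fl, above Mccc1.

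Agxt, Aass, Sardh and Prodh2 were the other genes that fell. Agxt, which turns glyoxylate and alanine into glycine and pyruvate (chromosome 1, 93135240 to 93145421), had 160.4, 213 and 133 CPM in the IRE1PKO libraries, against 380.4, 247 and 405 CPM in the IRE1fl libraries (log2 fold change -1.03, SE 0.24, edgeR adjusted p = 0.0433). Its groups did not overlap, with IRE1fl 2 the lowest IRE1fl library, and the call was lost without IRE1PKO 1, IRE1PKO 3, IRE1fl 1 or IRE1fl 3 (adjusted p up to 0.153), without the filter on low counts (0.143) and with limma-voom (0.0529). The glycine cleavage system did not pass: Gldc, Amt and Gcsh had log2 fold changes of -0.12, 0.075 and 0.059 (edgeR adjusted p from 0.721 to 0.849). Gldc was 239 CPM in IRE1fl 1 and 117 to 123 CPM in the other IRE1fl libraries, and dropping 1 library at a time moved its log2 fold change between -0.31 and 0.28. Aass, which opens lysine breakdown, had 188, 255 and 261 CPM in the IRE1PKO libraries, against 375, 284 and 358 CPM in the IRE1fl libraries (log2 fold change -0.53, SE 0.15, edgeR adjusted p = 0.0491). This value lay at the threshold, and the call was lost without any 1 IRE1PKO library, IRE1fl 1 or IRE1fl 3 (up to 0.16), with library totals as the only scaling (0.0929), a filter at a mean of 1 CPM (0.0558), limma-voom (0.0529) and a dispersion trend without robust fitting (0.06).

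Sardh and Dmgdh take the methyl groups left from choline off sarcosine and dimethylglycine. Sardh had 763, 889 and 991 CPM in the IRE1PKO libraries, against 1256, 1317 and 1307 CPM in the IRE1fl libraries (log2 fold change -0.55, SE 0.11, edgeR adjusted p = 0.0125), with no overlap, a call lost without IRE1PKO 1 (adjusted p = 0.0616). Dmgdh had a log2 fold change of -0.091 (edgeR adjusted p = 0.675) and overlapping groups. Prodh2, the hydroxyproline dehydrogenase, had 226, 261 and 219 CPM in the IRE1PKO libraries, against 323, 320.4 and 310.1 CPM in the IRE1fl libraries (log2 fold change -0.43, SE 0.098, edgeR adjusted p = 0.0181), with no overlap. Its call was lost without IRE1PKO 1 or IRE1fl 2 (up to 0.0797). Prodh, the proline dehydrogenase, had 197 ± 44.5 CPM in IRE1PKO and 308 ± 44.5 CPM in IRE1fl (SD, n = 3 each) and just missed the threshold (log2 fold change -0.64, SE 0.17, edgeR adjusted p = 0.0512). It passed without IRE1PKO 2 (0.0222) or IRE1fl 1 (0.0247). Oat, the ornithine aminotransferase, and Aldh4a1, which finishes proline breakdown and shares 32.5% of its exon bases with Gm21969 on the same strand, had log2 fold changes of -0.46 and -0.14 (edgeR adjusted p of 0.266 and 0.412). Oat was 776 CPM in IRE1PKO 2 and 442 to 457 CPM in the other IRE1PKO libraries, and it passed without IRE1PKO 2 (adjusted p = 0.0116).

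No gene passed in the remaining groups. Sds, the serine dehydratase that makes pyruvate (chromosome 5, 120476547 to 120483932), had 141, 129 and 155 CPM in the IRE1PKO libraries, against 395, 176 and 227 CPM in the IRE1fl libraries (log2 fold change -0.91, SE 0.31, edgeR adjusted p = 0.146). Every IRE1PKO library was below every IRE1fl library, but the IRE1fl libraries spread over 2.24-fold, and Sds passed without IRE1fl 1 (0.0296) or IRE1fl 2 (0.0265). Sdsl, its neighbour on chromosome 5 at a distance of 3721 bases, had a log2 fold change of -0.70 (edgeR adjusted p = 0.147) and the same order of IRE1fl libraries, and it passed without IRE1fl 2 (0.012). Exons of Plbd2 on the opposite strand cover 21.3% of the Sds exon bases.

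In cysteine breakdown, Cdo1, the cysteine dioxygenase, had 1112, 1122 and 913 CPM in the IRE1PKO libraries, against 1019, 923 and 927 CPM in the IRE1fl libraries (log2 fold change 0.13, SE 0.11, edgeR adjusted p = 0.503). The groups overlapped. Csad, the next enzyme on the way to taurine, had 426, 218 and 139.6 CPM in the IRE1PKO libraries, against 143, 106 and 50.6 CPM in the IRE1fl libraries. Csad had the highest log2 fold change of the 54 genes and the widest spread in both groups (log2 fold change 1.39, SE 0.62, edgeR adjusted p = 0.269). The lowest IRE1PKO value was below the highest IRE1fl value. Without IRE1PKO 1 its log2 fold change was 0.84.

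Folate enzymes gave no call. Aldh1l1, the formyltetrahydrofolate dehydrogenase that releases the carbon as CO2, had 753, 964 and 760.3 CPM in the IRE1PKO libraries, against 974, 1169 and 1330.4 CPM in the IRE1fl libraries (log2 fold change -0.49, SE 0.14, edgeR adjusted p = 0.0512). The groups did not overlap, and it passed without IRE1PKO 2 (0.0417), without IRE1fl 1 (0.0219), with limma-voom (0.0488) and without the filter on low counts (0.00665). Exons of Gm15756 on the opposite strand cover 11.0% of the Aldh1l1 exon bases. Mthfd1, which interconverts folate carbons, and Shmt1, the cytosolic serine hydroxymethyltransferase, had log2 fold changes of -0.22 and 0.020 (edgeR adjusted p of 0.153 and 0.923).

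The libraries of a group did not sit at 1 common level for these genes. IRE1PKO 2 was the highest IRE1PKO library for 34 of the 54 genes, and IRE1PKO 1 the lowest for 26. Among IRE1fl libraries, IRE1fl 1 was the highest for 28 genes and IRE1fl 2 the lowest for 29. The summed level of the 54 genes was 23876, 27269.7 and 23999.9 CPM in the IRE1PKO libraries, against 32456, 30916 and 32794 CPM in the IRE1fl libraries. All 3 IRE1PKO sums were below all 3 IRE1fl sums.

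**Figure D4:**
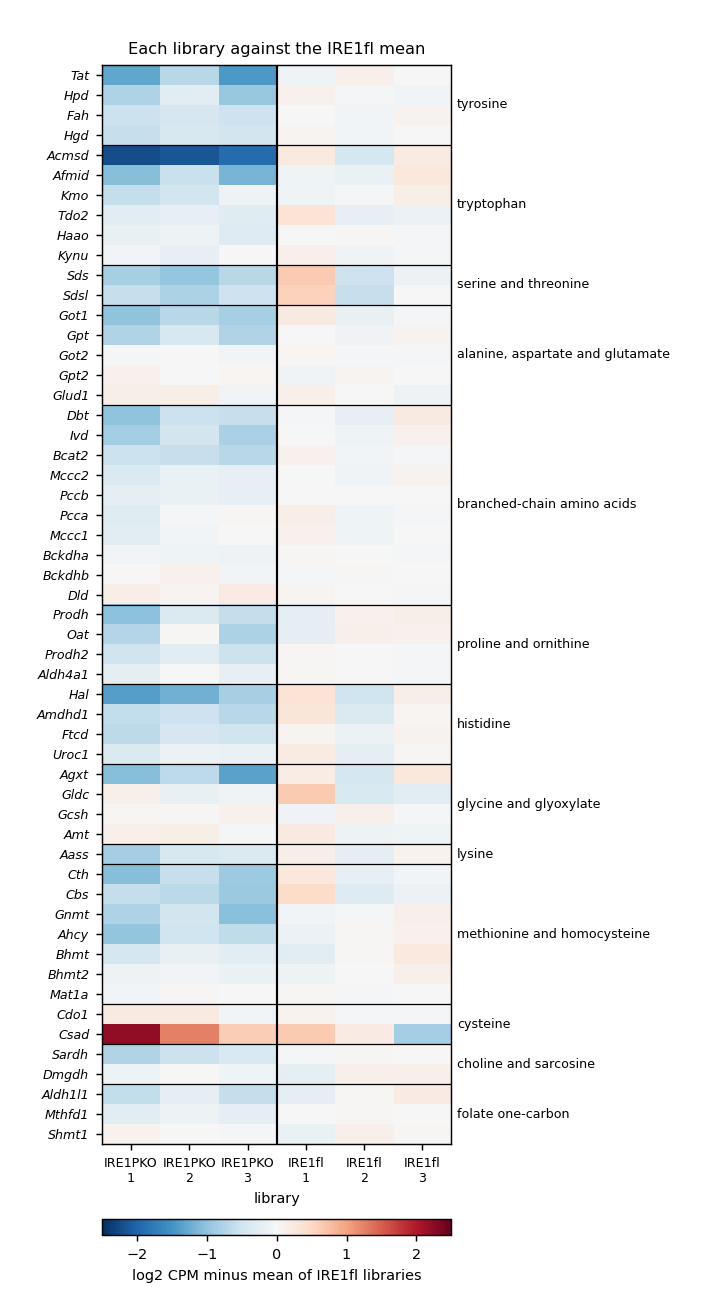
Log2 CPM of each gene in each library minus its mean over the IRE1fl libraries, grouped by amino acid, with the IRE1PKO libraries left of the IRE1fl libraries. Acmsd is low in every IRE1PKO library, while Csad is high in IRE1PKO 1 and IRE1PKO 2.

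Further enzymes of the same pathways were counted from lists, where 3.86% of all tested genes were called lower and 5.68% higher. Of 52 tested enzymes on a list of further amino acid catabolism genes, 9 fell and 1 rose. Kyat1, a kynurenine and glutamine transaminase, had 82.7, 93.3 and 88.6 CPM in the IRE1PKO libraries, against 162, 169 and 189 CPM in the IRE1fl libraries (log2 fold change -0.97, SE 0.094, edgeR adjusted p = 0.000224). Aadat, a mitochondrial aminoadipate and kynurenine transaminase, had a log2 fold change of -0.89 (SE 0.12), Acadsb, of isoleucine breakdown, of -0.82 (SE 0.11), and Gls2, the liver glutaminase, of -1.17 (SE 0.17). These 4 passed without each library in turn (adjusted p up to 0.0186). Of 32 tested further genes of one-carbon and methionine metabolism, 2 fell and 0 rose. Nnmt, which methylates nicotinamide with S-adenosylmethionine, had 32.6, 47.1 and 66.2 CPM in the IRE1PKO libraries, against 143, 140.2 and 172 CPM in the IRE1fl libraries (log2 fold change -1.64, SE 0.26, edgeR adjusted p = 0.0164). Its call was lost without IRE1PKO 2, IRE1fl 2 or IRE1fl 3 (up to 0.0757) and without the filter on low counts (0.0563). The other was Gart, of purine synthesis (log2 fold change -0.37, SE 0.093), a call lost without IRE1PKO 1, IRE1PKO 2, IRE1fl 1 or IRE1fl 2 (up to 0.122) and with library totals as the only scaling (0.0775). The median log2 fold change was -0.15 for the first list and -0.0045 for the second.

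Of 12 listed regulators of amino acid catabolism, 2 fell and 0 rose, where 3.86% of all tested genes were called lower. Klf15, a transcription factor known to drive amino acid breakdown in fasted mouse liver (chromosome 6, 90461043 to 90491803), had 104, 136 and 113 CPM in the IRE1PKO libraries, against 213, 201 and 195 CPM in the IRE1fl libraries (log2 fold change -0.79, SE 0.11, edgeR adjusted p = 0.00154), and it passed without each library in turn. Its groups did not overlap. Hnf4a and Foxo1, hepatic transcription factors, had log2 fold changes of -0.28 and -0.38 (edgeR adjusted p of 0.0918 and 0.135), and Gcgr, the glucagon receptor, -0.22 (0.162). Nr3c1, the glucocorticoid receptor, had -0.016 (SE 0.095), Cebpa -0.026, Cebpb -0.31, Ppara 0.023, Ppargc1a 0.42, Crebbp 0.053 and Atf4 0.019, with edgeR adjusted p from 0.114 to 0.948. Cebpb passed without IRE1fl 1 (adjusted p = 0.0249), and Hnf4a passed in the DESeq2 Wald test (adjusted p = 0.0248).

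**Figure D5:**
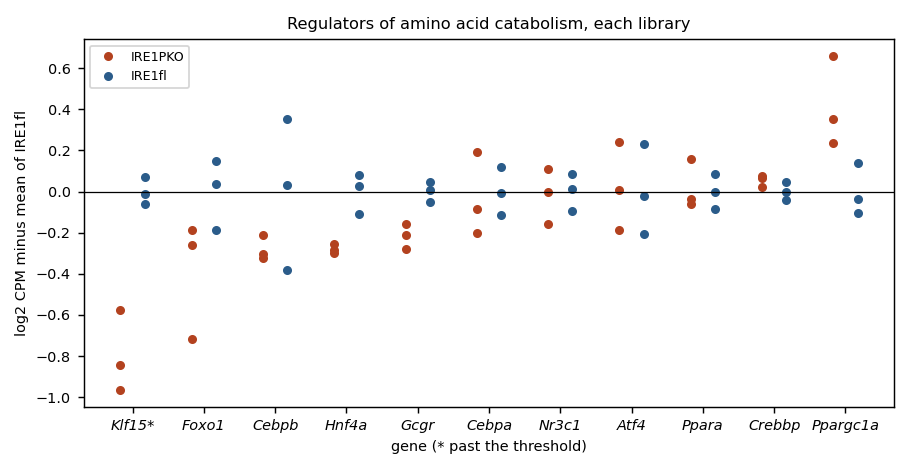
Log2 CPM of 11 of the listed regulators in each library minus the mean over the IRE1fl libraries, IRE1PKO left of IRE1fl for each gene. Klf15 is marked as past the threshold, and its IRE1PKO points all lie below its IRE1fl points.

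Markers of the position in the liver lobule gave these counts. Of 18 periportal markers 12 fell and 0 rose, and of 16 pericentral markers 1 fell and 2 rose. Among all tested genes 3.86% were called lower and 5.68% higher. The median log2 fold change was -0.85 for the periportal and -0.074 for the pericentral list. Hal and Sds are on the periportal list and Oat on the pericentral one, so the lists are not separate from the 54 genes. Gls2, which fell, is on both the periportal list and that of further amino acid catabolism enzymes, so it is counted in each. Asl and Ass1, of the urea cycle, Cps1, which feeds it, and Cyp2f2, a cytochrome P450, had log2 fold changes of -0.83, -0.99, -1.16 and -1.02, and these 4 passed without each library in turn. Of the pericentral genes, Gstm3, a glutathione transferase, rose (log2 fold change 2.14, SE 0.18) and did so without each library in turn. Aldh1a1, a retinaldehyde dehydrogenase, rose (0.45) and Cyp1a2, a cytochrome P450, fell (-1.13). The Aldh1a1 call was lost without any 1 IRE1PKO library, IRE1fl 1 or IRE1fl 3 (adjusted p up to 0.137) and without robust dispersion (0.0523). The Cyp1a2 call was lost without IRE1PKO 3 or any 1 IRE1fl library (up to 0.156), under scaling by library totals alone (0.0535) and without the filter on low counts (0.147). The part of lobular position in the changes of the 54 genes was not tested.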

How the data were processed

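Per the labels' protocols, RNA from whole liver was selected by oligo-dT and sequenced in 6 libraries. The deposited table, made by the authors, gives raw counts by gene symbol, 1 column a library, unpooled. Columns were matched through the genotype and replicate number they carry. Per the submitters' processing notes the genome was mm10. How reads were aligned and counted, whether with strand, and on which annotation, is not given in the sources used here. Counts summed to 35776219 to 39277435 per library. Even deposited counts from 1 to 8 were more frequent than odd ones, 2.58 to 3.19 times, so a pair may have been counted as 2 reads. Date-like names (27) held 0.178% of counts and were kept.

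Of 35976 genes, 14954 passed filterByExpr. After TMM scaling (trimmed mean of M-values), edgeR 4.0.16 in R 4.3.3 ran its two-sided quasi-likelihood test with robust dispersion. Benjamini-Hochberg adjustment covered the 14954 genes, at a threshold of 0.05. Fold changes are IRE1PKO over IRE1fl, and SE is the standard error. Separate animals are not stated in the labels, so p-values measure only the spread between these samples, which may be technical. No pair of libraries was a copy (chi-square per gene at least 23.4).

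The 54 genes, the 7 pathway and 12 cell type lists, the motifs and the naming rule were chosen with earlier results of these data known. By that rule, values in every library are given for each of the 54 genes past the threshold and, in a group with none, for the one of highest mean. Up to 4 genes past the threshold with the smallest p are named from each other list, and the tested regulators. Some items are not reported here. Of the listed genes, 4 were looked up as other names in a RefSeq table. Coordinates and promoter windows are RefSeq's on GRCm38.p6, the build of mm10, and exon lengths and overlaps are from GENCODE M21 on GRCm38.

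On counts simulated for this comparison over the 14954 genes, recovery was 20.9% for 67 genes altered 1.5-fold, 62.7% for 67 altered 2-fold and 89.4% for 66 altered 4-fold. There were 123 calls, 6.50% of them false, and 3 calls when nothing was altered. The data gave 1426 calls, so the adjustment was less strict there, and recovery in the data may differ from these shares. Alternatives changed the scaling (DESeq2 size factors or library totals alone), the filter (none, or a mean of 1 CPM), the test (Wald test of DESeq2 1.42.0, limma-voom with limma 3.58.1, dispersion not robust, a replicate block) or the libraries (each dropped once). One with halved counts was chosen after seeing the data.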

Additional observations from a re-analysis of the deposited data

How the results depend on the processing

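All 21 genes that fell kept a negative log2 fold change under the 15 alternatives, 17 of them were called in all 9 that keep every library, and 9 were called in all 15. Those 9 are Tat, Fah, Acmsd, Got1, Gpt, Bcat2, Ivd, Ahcy and Cth. With library totals as the only scaling the median log2 fold change of the 54 genes was -0.33 and that of all tested genes 0.069. Dropping 1 library at a time, the number of the 54 genes called lower ran from 10 to 22, the number called higher stayed at 0, their median ran from -0.44 to -0.31, and all genes called ran from 653 to 1484. The lowest counts came without IRE1PKO 1, with 653 genes called, and 815, 896 and 789 were called without IRE1PKO 2, IRE1fl 2 and IRE1fl 3. The DESeq2 Wald test called 26 of the 54 genes lower, all 21 of the main result among them, and adding Kmo, Sdsl, Prodh, Cbs and Aldh1l1. The other alternatives that keep every library called 20 to 23 lower. Halved counts called 22, adding Aldh1l1. Without robust dispersion Prodh and Cbs were called (0.0477 and 0.039).

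The replicate numbers are not stated to pair libraries. Deviations from the group mean correlated by 0.12, -0.023 and 0.18 between libraries of the same number, and 4 of 6 libraries correlated best with their own number. With the replicate block, 23 of the 54 genes were called lower, 18 of them in the main result too, and 1 higher, Csad (adjusted p = 7.27e-05). The calls of Afmid, Agxt and Aass were lost there (adjusted p of 0.0668, 0.218 and 0.0741). Among the regulators Foxo1 was called there (0.0155). The causes were not tested.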

Other observations

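Amino acid transporters were examined beside the enzymes. Of 24 tested transporters 7 fell and 0 rose in IRE1PKO, with a median log2 fold change of -0.24, where 3.86% of all tested genes were called lower. Slc38a2, a sodium-coupled neutral amino acid transporter, had 76.8, 76.4 and 78.9 CPM in the IRE1PKO libraries, against 100.3, 107 and 109.9 CPM in the IRE1fl libraries (log2 fold change -0.45, SE 0.081, edgeR adjusted p = 0.00598), with no overlap, and it passed without each library in turn. Slc43a1, which carries branched-chain and aromatic amino acids, had 3.08, 4.94 and 6.50 CPM in the IRE1PKO libraries, against 11.2, 14.7 and 21.8 CPM in the IRE1fl libraries (log2 fold change -1.71, SE 0.34, edgeR adjusted p = 0.0244). Its call was lost without IRE1PKO 2 or IRE1fl 2 (adjusted p up to 0.114) and without the filter on low counts (0.0922). Slc7a2, which carries arginine and lysine, and Slc25a15, the mitochondrial ornithine carrier, had log2 fold changes of -0.61 and -0.42 (edgeR adjusted p of 0.0287 and 0.0263). The Slc7a2 call was lost without IRE1PKO 1, IRE1PKO 3 or any 1 IRE1fl library (up to 0.114). The Slc25a15 call was lost without IRE1PKO 1, IRE1PKO 2, IRE1fl 1 or IRE1fl 2 (up to 0.107) and with library totals as the only scaling (0.0737).

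Of 6 genes of serine, asparagine and proline synthesis, 1 fell and 0 rose, where 3.86% of all tested genes were called lower. Asns, the asparagine synthetase, had 0.616, 0.597 and 0.440 CPM in the IRE1PKO libraries, against 1.47, 1.19 and 1.94 CPM in the IRE1fl libraries (log2 fold change -1.47, SE 0.37, edgeR adjusted p = 0.0291). These levels are low, and the call was lost without any 1 IRE1PKO library or IRE1fl 3 (adjusted p up to 0.122).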
